A study of Mus musculus with 8 samples.

Results

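The genes followed here carry the names of subunits of respiratory complex I (NADH:ubiquinone oxidoreductase). They were chosen by name alone: of the 25240 gene symbols in the deposited count table, 41 began with Ndufa, Ndufb, Ndufc, Ndufs, Ndufv or Ndufab followed by a digit. All 41 are called complex I genes below. They include Ndufa4, which is now placed in complex IV, its relative Ndufa4l2, and Ndufa11b, Ndufb4c and Ndufs5-ps, listed here as copies. The Ndufaf assembly factors fall outside that pattern and are described as a separate list. After a filter on low counts 39 of the 41 genes were tested, among 14284 genes in all. Ndufs5 had no count in any library and Ndufa11b had 0 to 5 counts per library, so no difference is given for either.

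RNA of mouse kidney cells, all labelled as proximal tubular epithelial cells, was sequenced in 8 libraries. In 4 of them the cells were Tomato-negative and in the other 4 Tomato-positive. Both groups carry the genotype p16-tdTomato, which names the senescence marker p16 and a red fluorescent protein, and both come from animals made to develop chronic kidney disease (CKD) with a diet rich in adenine. There was no group without kidney disease. The sources used here give neither the construction of the reporter nor the gates of the sort, nor the age, the sex or the time on the diet. Each title holds 1 of the identifiers CKD523_2, CKD523_3, CKD627_1 and CKD627_2, and every identifier occurs once in each Tomato group. Values per library are given below in that order of identifiers. Nothing in the labels ties the libraries to separate animals, so the p-values describe the spread between these samples, which may in part be technical.

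Complex I takes electrons from NADH and passes them along iron-sulfur clusters to ubiquinone in the inner mitochondrial membrane, while it pumps protons out of the matrix. Its matrix arm oxidises NADH and reduces the quinone, its membrane arm pumps, and a ring of accessory subunits holds the enzyme together. Tubule cells of the kidney, above all those of the proximal tubule and the thick ascending limb, are rich in mitochondria and pay for salt transport mainly with oxidative phosphorylation. The subunits encoded in mitochondrial DNA, which form the core of the membrane arm, are not analysed here, since the table held 0 symbols beginning with mt-.

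Total counts per library ranged from 13474439 to 19886202. The tdTomato transgene stood at 87.3 to 152 CPM in the negative and at 3227 to 4188 CPM in the positive libraries (CPM, counts scaled to the TMM-adjusted library total). The groups were thus far apart in the transgene, as labelled. The proximal tubule marker Lrp2 was found in every library (198 to 1600 CPM in the negative, 359 to 838 CPM in the positive ones). Markers of other segments were high as well: Slc12a1 of the thick ascending limb reached 1206 CPM in a negative library, and Aqp2 of the collecting duct 2507 CPM in a positive one. The libraries thus also held RNA that marks other segments.

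Complex I transcripts were lower in Tomato-positive cells. Summed over all 41 genes they made up 5357, 5970, 7023 and 5039 CPM in the Tomato-negative libraries and 3746, 3617, 3228 and 3385 CPM in the Tomato-positive libraries. The sums of the groups did not overlap. Positive libraries held 69.9, 60.6, 46.0 and 67.2% of the sum of the negative library with the same identifier. All 39 tested genes had a negative log2 difference (Tomato-positive minus Tomato-negative), with a median of -0.72, against 0.01 over all genes tested. In bulk RNA, fewer cells rich in these transcripts and less of the transcripts per cell cannot be told apart.

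How many of the 39 genes passed the threshold depended on whether libraries were paired. In the unpaired edgeR fit 6 genes fell in Tomato-positive cells at an adjusted p under 0.05, where 0.231% of all tested genes and 0.513% of those with a mean of at least 50 CPM did: Ndufa1, Ndufa4, Ndufb5, Ndufb9, Ndufb10 and Ndufc1. Without an adjustment 37 of the 39 had a p under 0.05, against 17.8% of all tested genes, the share beside which the unadjusted counts of the groups below are to be read. In the edgeR fit with the identifier as a block, called the paired fit below, 29 genes fell, against 3.81% of all tested genes and 6.79% of those of at least 50 CPM. None rose in either fit, since no estimate was positive. Without Ndufa4, Ndufa4l2 and the copies, 35 tested genes remained, of which 5 fell in the unpaired and 26 in the paired fit. DESeq2 called 34 genes lower without pairing (background 3.62%) and limma-voom 6 (background 0.28%), and neither called any gene higher. Removing any 1 of the 8 libraries from the unpaired fit left 0 genes called, although the median then lay between -0.81 and -0.64. In the paired fit 15 genes were called without identifier CKD523_2, 0 without CKD523_3, 29 without CKD627_1 and 3 without CKD627_2, with medians between -0.80 and -0.63.

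The direction varied less than the calls. In 36 of the 39 genes every positive library lay below every negative library, which held for 6.48% of all tested genes and for 9.01% of those with a mean of at least 50 CPM. The exceptions were Ndufb3, Ndufb4 and Ndufa4l2. Without Ndufa4, Ndufa4l2 and the copies, 33 of 35 genes were so separated. In 37 genes the positive library was lower in all 4 pairs (17.6% of all tested genes and 22.3% of those of at least 50 CPM). The separation of the groups by library was thus common to nearly all of the genes, while the number past the threshold moved with the design of the test.

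**Figure D1:**
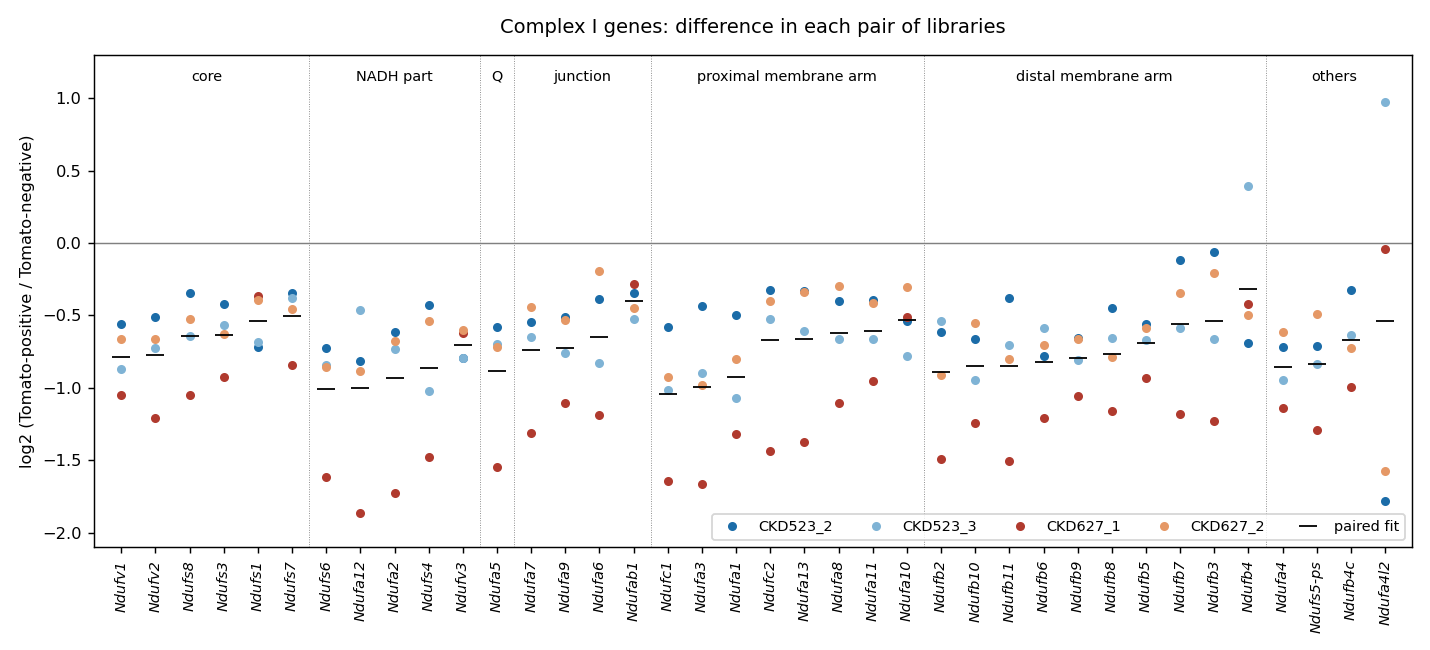
Difference between the Tomato-positive and the Tomato-negative library of each identifier (log2 of CPM, prior count of 2; y axis) for 38 of the 39 tested complex I genes (x axis), grouped by their place in the enzyme; points are pairs of libraries and bars the estimates of the paired fit. Almost all points lie below 0, the exceptions being Ndufb4 and Ndufa4l2 in CKD523_3, and the pair CKD627_1 is the lowest for most genes, with a median of -1.18.

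Stretches of promoter sequence are shown here because the genes move together and their starts can be compared by letters. The RefSeq table for GRCm38.p6 (mm10, the build of the files) gave 35 promoters of 300 bases, from 250 before to 50 after the start of transcription, for 33 of the 41 genes. Searched on both strands, the letters AAGATGGC, the word bound by YY1, were in 7 of the 35 (20%), against 4.06% of the promoters of tested genes and 2.75% of all 32851 promoters. All 7 lay on the strand of the gene, between 23 and 39 bases after the start, and in all 7 the ATG in the middle of the word was the start codon annotated in GENCODE M21. Of 605 matches to the word in promoters of tested genes, 42.5% lay on the strand of the gene and after the start. Among the 257 words of tested genes in that orientation and after the start, 163 (63.4%) held an annotated start codon. The 7 stretches are given 5′ to 3′ on the strand of the gene, with the word in capitals.

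Ndufc1, chr3:51408915-51408944, minus strand: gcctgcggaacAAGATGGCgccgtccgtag
Ndufa3, chr7:3617384-3617413, plus strand: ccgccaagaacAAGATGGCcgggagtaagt
Ndufa9, chr6:126849097-126849126, minus strand: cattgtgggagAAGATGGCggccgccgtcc
Ndufs7, chr10:80249462-80249491, plus strand: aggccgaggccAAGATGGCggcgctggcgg
Ndufs6, chr13:73328433-73328460, minus strand: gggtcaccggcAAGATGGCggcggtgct
Ndufs4, chr13:114388045-114388070, minus strand: ttgcctacaggAAGATGGCggcggtc
Ndufb8, chr19:44555393-44555415, minus strand: cggagaaggtgAAGATGGCtgcc

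The paired differences of the 7 genes ran from -1.04 (Ndufc1) to -0.51 (Ndufs7) with a median of -0.87, and those of 25 tested genes whose promoters lacked the word from -1.004 to -0.32 with a median of -0.69. The ranges overlap, and the difference was not tested. The letters GCGCANGCG, the core of the site of NRF1, a regulator of nuclear genes for mitochondria, were in 9 of the 35 promoters (25.7%), against 12.1% of those of tested genes and 6.25% of all. CCGGAAG, the word of ETS factors such as GABP, was in 4 (11.4%), against 15.9% and 8.86%. TCAAGGTCA, the word of the estrogen-related receptors, was in 0, against 0.257% and 0.423%. Overlapping promoters of Ndufa5 share the same NRF1 word, and counted by gene that word was in 8 of 33 (24.2%). No matches to different words overlapped, and Ndufs6 alone held words of different kinds. Examples of the NRF1 and ETS words follow in capitals, 5′ to 3′ on the strand of the gene, so that a match on the other strand appears as its reverse complement. Ndufb10 is shown as a gene that passed both fits, Ndufs6 for its pair of words and Ndufs3 as the core gene with an ETS word on each strand.

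Ndufb10, NRF1, chr17:24724406-24724435, minus strand: tcacctttctGCGCAGGCGtagaggtcccg
Ndufs6, NRF1, chr13:73328478-73328507, minus strand: gactgctgtgCGCCTGCGCcggcacttggt
Ndufs3, ETS, chr2:90904730-90904759, minus strand: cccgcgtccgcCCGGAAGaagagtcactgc
Ndufs3, ETS, chr2:90904702-90904731, minus strand: gcacatttccaCTTCCGGtccgtgcccttg

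The nuclear core subunits, which hold the flavin and the iron-sulfur clusters, all had lower levels in every positive library than in any negative one. None of the 7 passed the unpaired edgeR test after adjustment, while all 7 had an unadjusted p under 0.05, DESeq2 called 7 and limma-voom 0, and 6 fell in the paired fit. The median paired difference was -0.64, which is 64.4% of the negative level.

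Ndufv1 (chr19:4007384-4012806, minus strand) carries the flavin and the site where NADH is oxidised. It stood at 279, 328, 317 and 239 CPM in the negative and at 190, 179, 153 and 151 CPM in the positive libraries. The difference was -0.79 ± 0.15 (log2, SE; edgeR unpaired, adjusted p = 0.0603) and -0.79 ± 0.14 in the paired fit (adjusted p = 0.0136). Ndufv1 thus fell to 58.0% of the negative level in the paired fit. Its partner Ndufv2 (chr17:66078638-66101559, minus strand) holds an iron-sulfur cluster beside the flavin. It was found at 175, 195, 275 and 184 CPM in the negative libraries and within the narrow range of 123, 118, 119 and 116 CPM in the positive ones. The spread of Ndufv2 therefore lay in the negative group, where CKD627_1 was the high library. Its difference was -0.80 ± 0.16 unpaired (edgeR, adjusted p = 0.0618) and -0.78 ± 0.15 paired (adjusted p = 0.0195).

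Ndufs1 (chr1:63143596-63176833, minus strand) is the largest core subunit and passes electrons on from the flavin. It had 235, 257, 210 and 195 CPM in the negative and 142, 160, 163 and 148 CPM in the positive libraries. Unlike most of the genes, Ndufs1 differed more in the CKD523 pairs (-0.72 and -0.68) than in the CKD627 pairs (-0.37 and -0.39), a contrast that did not pass the test of the difference between prefixes (edgeR, unadjusted p = 0.165, adjusted p = 0.545). Over all libraries the Ndufs1 difference was -0.55 ± 0.13 unpaired (adjusted p = 0.0893) and -0.54 ± 0.13 paired (adjusted p = 0.0423).

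Ndufs7 (chr10:80249121-80256794, plus strand) lines the pocket in which ubiquinone is reduced and carries the last cluster before the quinone. It had 131, 126, 182 and 125 CPM in the negative and 103, 97.0, 101 and 90.8 CPM in the positive libraries. Ndufs7 was the 1 core gene outside the threshold in both edgeR fits: -0.52 ± 0.15 unpaired (adjusted p = 0.128) and -0.51 ± 0.14 paired (adjusted p = 0.0632, 95% interval -0.82 to -0.19).

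Ndufs3 and Ndufs8 complete the core of the matrix arm, Ndufs8 with clusters on the way to the quinone and Ndufs3 as a scaffold without one. Ndufs3 (chr2:90894634-90904827, minus strand) stood at 82.0, 98.5, 116 and 89.4 CPM in the negative and at 61.2, 66.5, 61.1 and 57.9 CPM in the positive libraries. Its difference was -0.65 ± 0.14 unpaired (edgeR, adjusted p = 0.0631) and -0.64 ± 0.14 paired (adjusted p = 0.0287). Ndufs8 (chr19:3908863-3912774, minus strand) had 127, 148, 164 and 130 CPM against 99.9, 94.3, 79.3 and 90.1 CPM. It differed by -0.64 ± 0.14 unpaired (adjusted p = 0.0631) and -0.64 ± 0.15 paired (adjusted p = 0.0374). The core genes thus moved by like amounts, between -0.79 and -0.51 in the paired fit, and the standard errors of neighbours in that order overlap.

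**Figure D2:**
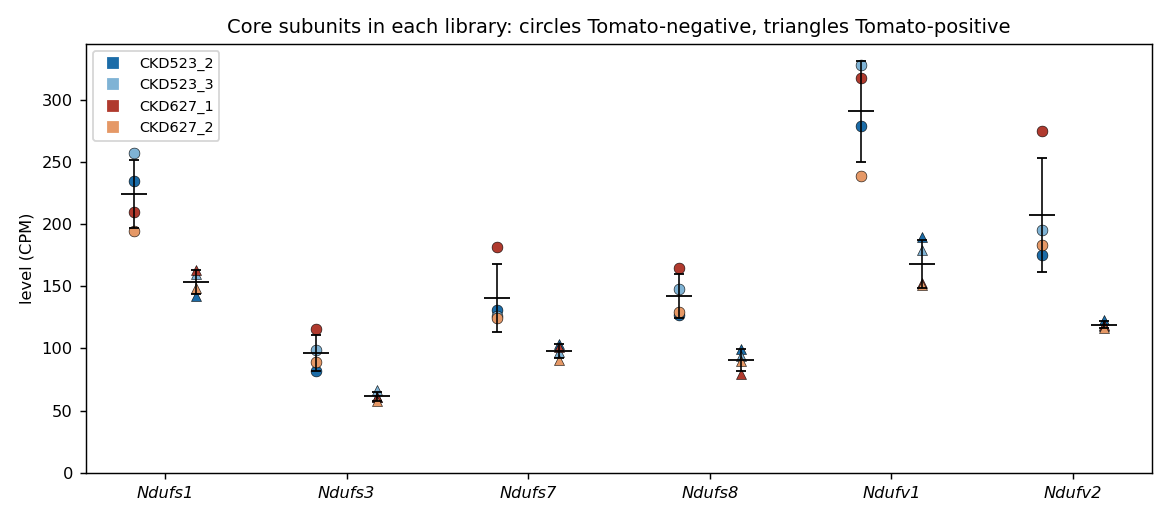
Levels of 6 of the 7 core subunits (CPM, linear axis from 0) in each library; circles are Tomato-negative and triangles Tomato-positive libraries, coloured by identifier, and bars give the mean and SD of 4 libraries. For each gene shown the triangles lie below the circles; Ndufv1 is highest (291 ± 40.5 CPM in the negative group) and Ndufs3 lowest (96.5 ± 14.7 CPM).

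The accessory subunits around the site of NADH oxidation showed the lowest median of the groups with more than 1 gene, -0.93 in the paired fit (52.4% of the negative level). All 5 fell in the paired fit, none passed the unpaired edgeR test, all 5 had an unadjusted p under 0.05, and DESeq2 called 5 and limma-voom 0. Ndufs6, which binds zinc, fell to 49.7% of the negative level (-1.01 ± 0.17, edgeR paired, adjusted p = 0.013), from 111 ± 18.1 to 55.9 ± 13.3 CPM (SD, n = 4). Ndufa12, which docks late in assembly, went from 43.4 ± 6.59 to 22.2 ± 6.65 CPM, and its 4 pairs differed by -0.81, -0.46, -1.87 and -0.89. Ndufs4, whose loss in mice gives an encephalopathy like Leigh syndrome, went from 121 ± 28.2 to 65.7 ± 9.3 CPM. Ndufv3, a small subunit beside the flavin, differed by nearly the same amount in every pair (-0.79, -0.79, -0.62 and -0.60). Ndufa2, a thioredoxin-like subunit, completed the set with a paired difference of -0.93 ± 0.20. Whether this group differed from the core group was not tested.

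Nearer the quinone and at the junction of the arms, 3 of 5 genes fell in the paired fit and none passed the unpaired one, with an unadjusted p under 0.05 for all 5; DESeq2 called 4 and limma-voom 0. Ndufa5, of the quinone-reducing part, fell from 137 ± 39.9 to 71.9 ± 3.49 CPM (-0.89 ± 0.18, edgeR paired, adjusted p = 0.0229). Ndufa9, which holds a bound NADPH, fell from 209 ± 19.1 to 127 ± 16.7 CPM (-0.73 ± 0.15, adjusted p = 0.0219). Ndufa7 also fell, by 0.74 on the log2 scale. Ndufa6, a small protein of the LYR family, did not pass (-0.65 ± 0.18, adjusted p = 0.0648). Ndufab1 (chr7:122085403-122101886, minus strand) is the mitochondrial acyl carrier protein and also serves fatty acid synthesis and iron-sulfur cluster assembly. It had 25.3, 26.6, 27.6 and 28.8 CPM in the negative and 19.9, 18.4, 22.6 and 21.1 CPM in the positive libraries. The groups did not overlap, but the difference of Ndufab1 was among the smallest, -0.40 ± 0.14 unpaired (adjusted p = 0.194) and -0.40 ± 0.16 paired (adjusted p = 0.154).

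In the proximal membrane arm, next to the matrix arm, 2 of 8 tested genes fell in the unpaired fit and 5 in the paired fit, with a median of -0.66. Ndufc1 (chr3:51404677-51408988, minus strand), a small membrane subunit, had 57.7, 71.3, 95.7 and 63.6 CPM in the negative and 38.6, 35.2, 30.5 and 33.3 CPM in the positive libraries. The positive level of Ndufc1 was 48.5% of the negative one, the lowest share of all 39 genes: -1.07 ± 0.18 unpaired (edgeR, adjusted p = 0.0473) and -1.04 ± 0.19 paired (adjusted p = 0.0143). Ndufa1 (chrX:37187588-37191163, minus strand), an X-linked subunit needed early in assembly, had 117, 122, 155 and 108 CPM against 82.5, 58.3, 61.9 and 62.1 CPM. It fell by 0.92 on the log2 scale in both fits, with an SE of 0.16 in each (adjusted p = 0.0497 unpaired, 0.0136 paired). The other genes called in the paired fit were Ndufa3 (-0.99 ± 0.19), Ndufa10 (-0.53 ± 0.13) and Ndufa11 (-0.61 ± 0.14). Ndufa8, Ndufa13 and Ndufc2 were not called (adjusted p between 0.0527 and 0.0753), with positive levels at 65.2, 63.2 and 62.9% of the negative ones.

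In the distal membrane arm, which the Ndufb genes build, 3 of 10 tested genes fell in the unpaired fit and 7 in the paired fit, with a median of -0.78. Ndufb10 (chr17:24722060-24724478, minus strand) had 182, 194, 222 and 154 CPM in the negative and 115, 101, 93.8 and 105 CPM in the positive libraries. It fell by 0.86 on the log2 scale (SE 0.14, edgeR unpaired, adjusted p = 0.0473) and by 0.85 in the paired fit (SE 0.15, adjusted p = 0.0147). Ndufb9 (chr15:58933756-58939488, plus strand), a LYR protein that binds an acyl carrier protein, had 243, 263, 325 and 231 CPM against 154, 151, 156 and 146 CPM. The positive libraries were nearly level for Ndufb9, and it fell by 0.81 unpaired (SE 0.14, adjusted p = 0.0473) and 0.80 paired (SE 0.13, adjusted p = 0.0115). Ndufb5 (chr3:32736990-32751566, plus strand), a membrane subunit, had 136, 146, 171 and 139 CPM in the negative libraries. Its positive values of 92.1, 91.3, 89.5 and 92.8 CPM had the smallest SD of any complex I gene in that group relative to their mean (1.41 CPM on 91.4 CPM). Ndufb5 fell by 0.70 unpaired (SE 0.12, adjusted p = 0.0473) and 0.69 paired (SE 0.13, adjusted p = 0.0182). Ndufb2, Ndufb6, Ndufb8 and the X-linked Ndufb11 passed in the paired fit, with differences between -0.89 and -0.77.

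Ndufb3 (chr1:58586384-58595964, plus strand), a small membrane subunit, had 71.4, 87.7, 113 and 65.5 CPM in the negative and 68.2, 55.4, 48.2 and 56.7 CPM in the positive libraries. The ranges of Ndufb3 touched, since the positive CKD523_2 lay above the negative CKD627_2, and it was called in neither fit (-0.56 ± 0.19 unpaired, edgeR, adjusted p = 0.188; -0.54 ± 0.20 paired, adjusted p = 0.136). Ndufb7, a subunit of the intermembrane space, was not called either, with a paired difference of -0.56 ± 0.18 (adjusted p = 0.101).

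Ndufb4 shares sequence with a copy listed under its own symbol, and the values of both are uncertain as to source. Ndufb4 (chr16:37647170-37654453, minus strand) had 37, 31, 44 and 45 counts in the negative and 22, 46, 31 and 41 counts in the positive libraries. That is 2.80, 1.99, 2.58 and 2.86 CPM against 1.69, 2.65, 1.90 and 1.99 CPM, with overlapping groups. The single-exon copy Ndufb4c (chr15:73809507-73809896, minus strand) carried far more, 69.9 ± 6.65 CPM in the negative and 44.3 ± 7.86 CPM in the positive libraries (SD, n = 4). All 360 of the 31-base words of the Ndufb4c transcript occur in Ndufb4 transcripts, so reads of either gene could have been counted for the other. Ndufb4 was called in neither fit (-0.31 ± 0.37 unpaired, edgeR, adjusted p = 0.706; -0.32 ± 0.50 paired, adjusted p = 0.738), while Ndufb4c fell in the paired fit (-0.67 ± 0.15, adjusted p = 0.0318). Ndufs5 was listed at 0 in all libraries, which allows up to 3 counts per library, while Ndufs5-ps, whose sequence was not analysed here, stood at 75.7 ± 16.4 and 41.9 ± 3.11 CPM and fell in the paired fit (-0.83 ± 0.16, adjusted p = 0.0196). Ndufa11b shares 105 of its 394 words (26.6%) with Ndufa11.

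Ndufa4 and its relative Ndufa4l2 carry the complex I name but Ndufa4 is now placed in complex IV. Ndufa4 (chr6:11900292-11907497, minus strand) was among the most abundant of all 39, with 373, 417, 454 and 347 CPM in the negative and 227, 216, 206 and 227 CPM in the positive libraries. Its p was the smallest of the 39: -0.86 ± 0.13 unpaired (edgeR, adjusted p = 0.0407) and -0.85 ± 0.14 paired (adjusted p = 0.011). Ndufa4l2 (chr10:127514967-127517154, plus strand), a homolog induced by hypoxia, was scarce, with 4, 10, 118 and 115 counts in the negative and 0, 24, 110 and 49 counts in the positive libraries. Its pairs did not share a direction: they differed by -1.78, 0.97, -0.04 and -1.57 with a prior count of 2, and the test gave -0.53 ± 1.22 unpaired (adjusted p = 0.856) and -0.54 ± 0.68 paired (adjusted p = 0.667, 95% interval -2.08 to 1.00). The paired interval of Ndufa4l2 is too wide to give a direction.

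The identifiers share 2 prefixes, CKD523 and CKD627, which mark a strong split of the libraries; what they stand for is not given in the labels. Across all tested genes 21.1% differed between the prefixes in an edgeR fit with the Tomato group as a covariate. Among the 39 complex I genes only Ndufa4l2 did, higher in CKD627 by 3.23 on the log2 scale (SE 0.78, adjusted p = 0.0124), and the median over the 39 was -0.01. Within CKD523 alone (2 libraries against 2) the median Tomato difference was -0.62 with 33 genes lower (background 8.38%), and within CKD627 alone it was -0.91 with 9 genes lower (background 1.01%). For none of the 39 did the Tomato difference itself differ between prefixes after adjustment (background 0.014%), and 3 had an unadjusted p under 0.05 (Ndufa3, Ndufa12 and Ndufb11), a smaller share than the 13.2% of all tested genes. With the identifiers as a block the count was again 0 (background 0.14%).

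The pairs differed in size. The medians over the 39 genes were -0.51, -0.67, -1.18 and -0.60 for CKD523_2, CKD523_3, CKD627_1 and CKD627_2. In the pair CKD627_1 all genes were spread more widely as well, with quartiles of -0.51 and 0.59 over all tested genes, against -0.34 and 0.31 in CKD523_2. Without that pair the paired fit still called 29 complex I genes, with a median of -0.63.

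Transcript length went with the difference across the whole table, and most complex I genes are short. Their median exonic length was 977 bases, against 3278.5 bases for all tested genes. Over all tested genes the median paired difference was -0.42 for the 689 genes under 1000 bases, -0.23 between 1000 and 2000 bases, -0.04 between 2000 and 4000 bases and 0.20 above. The gradient was steepest in the pair CKD627_1, where genes under 1000 bases had a median of -0.91 and those above 4000 bases one of 0.53, and flattest in CKD523_2 (-0.15 and 0.04). Complex I genes lay below the genes of their own length. The 20 under 1000 bases had a median of -0.77, against -0.38 for 574 other genes of that length outside the respiratory and ribosomal lists and -0.50 for the 109 of these with at least 50 CPM. The 12 between 1000 and 2000 bases had a median of -0.71, against -0.21 for 2530 other genes. The 4 between 2000 and 4000 bases (Ndufa10, Ndufv3, Ndufb8 and Ndufs1) had a median of -0.62, against -0.03. Of 38 genes with a length, 37 lay below the trend of the other genes, by a median of 0.46 on the log2 scale. That trend joins medians of bins of length and was not matched for level. Complex I genes shorter than 846.5 bases, the median length of the shortest bin, were set against the value of that bin (-0.38), not against a trend at their own length.

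A correction for the length trend in each library reduced the difference in most tested complex I genes and kept its direction in all but Ndufb4. It enlarged the paired differences of Ndufab1 (-0.40 to -0.51) and Ndufb2 (-0.89 to -0.996), both longer than 4000 bases, and Ndufs5-ps, which had no length, was not corrected. The median became -0.42 in both fits, more than 1.5 times smaller. The paired edgeR fit with that correction called 19 genes lower, against 4.07% of all tested genes, and the unpaired fit 1, Ndufc1, against 0.133%. The 19 comprised all 5 accessory subunits around the NADH site and 4 of the 7 core subunits, Ndufv1, Ndufv2 and Ndufs1 among them. Ndufa1, Ndufa4 and Ndufb9, called in the unpaired fit without the correction, had adjusted p-values of 0.0579, 0.0766 and 0.086 in the corrected paired fit.

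**Figure D3:**
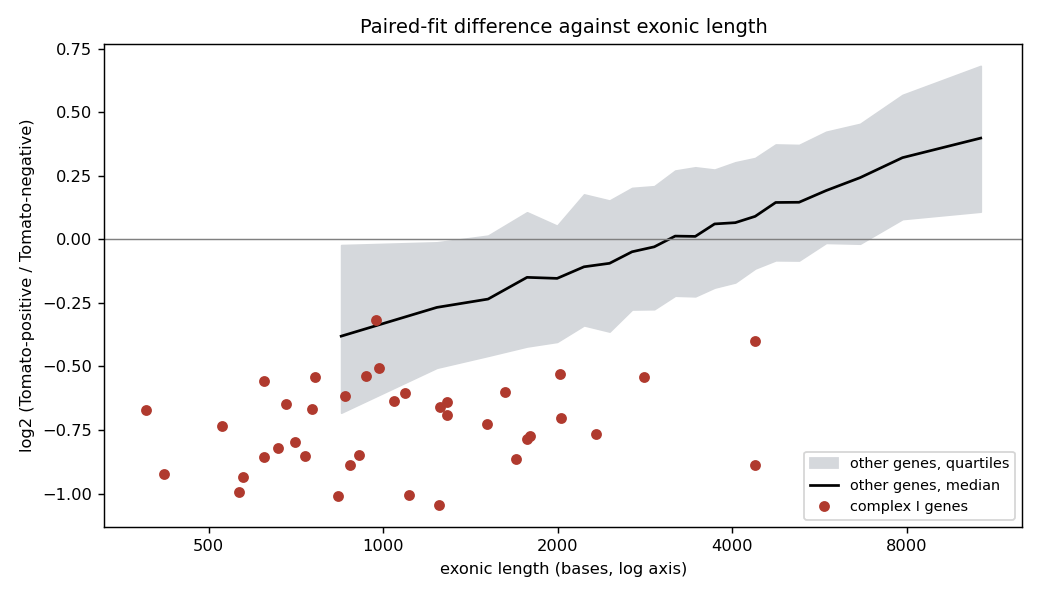
Paired-fit difference (log2, y axis) against exonic length (bases, log axis); the line and band give the median and quartiles of genes outside the respiratory and ribosomal lists in bins of equal size, and points are 38 complex I genes. The line starts at a length of 846.5 bases and climbs from -0.38, and shorter points are set against that first value. All points but Ndufb4 lie below the line or that value (median distance -0.46).

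Levels of tubule segment markers also differed between the Tomato groups. The summed level of 10 proximal tubule markers in the positive libraries was 47.9, 41.4, 63.4 and 79.8% of that in the negative ones (5814 to 24683 CPM in the negative and 3687 to 10211 CPM in the positive libraries), and 3 of the 10 fell in the paired fit and 1 in the unpaired fit. The sum rests on the abundant markers: the median over the 10 was -0.96 and -0.82 in the CKD523 pairs but 0.58 and 0.30 in the CKD627 pairs, and -0.13 in the paired fit. For 6 markers of the thick ascending limb it was 46.8, 37.3, 56.6 and 39.7% (3994 to 14165 CPM and 1696 to 6796 CPM), and 4 of the 6 fell in the paired fit and 0 in the unpaired fit (2 with an unadjusted p under 0.05, DESeq2 2, limma-voom 0). The 4 markers of the distal convoluted tubule had sums of 18.5, 14.5, 51.3 and 28.8% of the negative level, and 3 of the 4 fell in the paired fit and 0 in the unpaired fit (2 with an unadjusted p under 0.05, DESeq2 2, limma-voom 0). Their paired differences ran from -3.93 to 0.39. Sums of 6 intercalated cell markers were 114, 66.1, 45.5 and 45.8%, and 2 fell in the paired fit and 0 in the unpaired fit (2 with an unadjusted p under 0.05, DESeq2 1, limma-voom 0). The 6 did not move one way: 3 were lower and 2 higher in all 4 pairs, with paired differences from -2.62 to 0.45. All 7 markers of principal cells of the collecting duct rose in the paired fit and 1 in the unpaired fit. Of all 14284 tested genes, 545 rose in the paired fit and 52 in the unpaired fit. Principal cell sums were 473, 700.5, 242 and 359% of the negative level (209 to 1767 CPM and 989 to 4295 CPM). Proximal tubule sums of the negative libraries were 20639 and 24683 CPM in CKD523 and 5814 and 6953 CPM in CKD627. Thick ascending limb sums of these libraries went the other way, at 3994 and 4550 CPM in CKD523 and 12014 and 14165 CPM in CKD627. The complex I sums of the prefixes overlapped in the negative group. Defining markers of all 9 cell types looked at were above 0 in every library. The part of these shifts in the complex I difference was not tested.

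**Figure D4:**
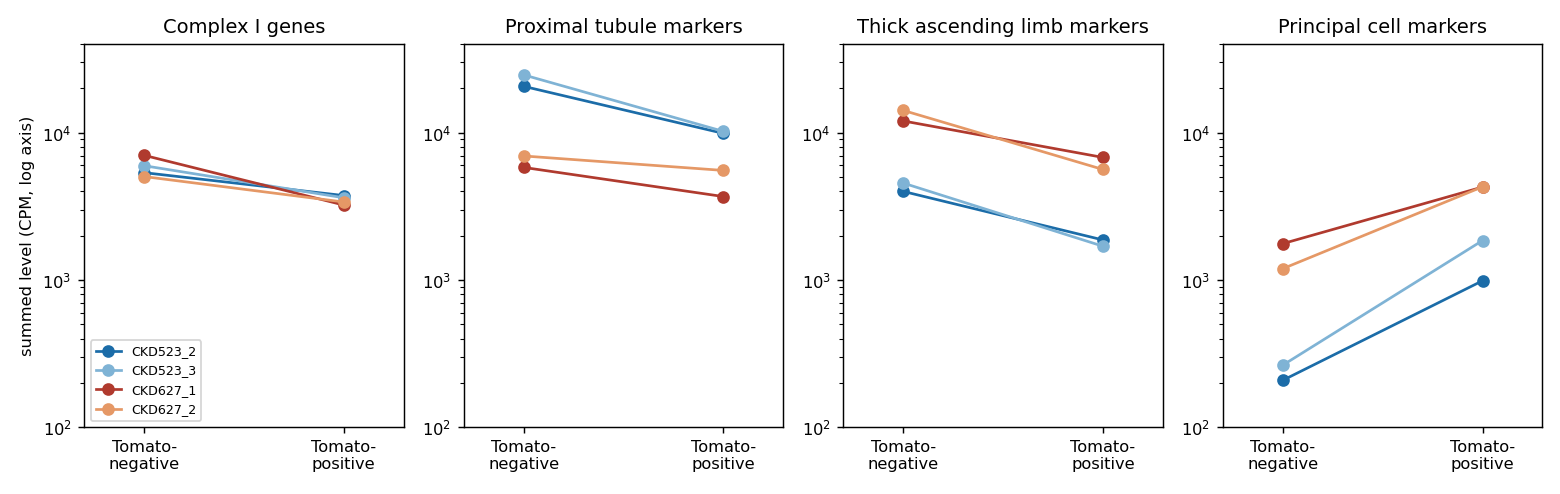
Summed levels (CPM, log axis, same scale in each panel) of the complex I genes and of markers of 3 cell types, with lines joining the libraries of an identifier. Complex I, proximal tubule and thick ascending limb sums are lower in each Tomato-positive library than in its partner, and principal cell sums are higher; the median over the proximal tubule markers is above 0 in both CKD627 pairs (0.58 and 0.30).

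The order of the genes by level was nearly the same in both groups. Per kilobase of exonic length, Ndufa4 was highest (637 ± 75.6 CPM per kilobase in the negative and 351 ± 16.4 in the positive libraries, SD, n = 4), followed by Ndufb9 (377 ± 59.2 and 215 ± 6.3). Next came Ndufa1 in the negative group, at 299.7 ± 48.5 CPM per kilobase. Below all others but Ndufa4l2 and Ndufb4 stood Ndufab1 at 6.2 ± 0.3 and 4.7 ± 0.4 CPM per kilobase, with 4387 exonic bases the longest of the genes. In 34 of 37 pairs of neighbours in the negative order the ranges of the libraries overlapped, so that most neighbours do not differ beyond their spread. Of 38 genes, 34 kept their rank within 3 places between the groups, and the largest shift was 6 places (Ndufs6). Levels per kilobase thus ranged widely over the listed genes in both groups. The ends of that order are not plain subunit levels. Ndufa4 is placed in complex IV, and the reads of Ndufb4 are uncertain as to source. Lengths were unions of exons over the annotated transcripts, which lowers the value of a gene such as Ndufab1 where shorter transcripts are the ones expressed.

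Genes that serve complex I without being part of it also had mostly negative differences. Of 18 assembly factors none passed the unpaired edgeR test (11 had an unadjusted p under 0.05, DESeq2 called 6 and limma-voom 0), and 4 fell in the paired fit, with a median of -0.54. Dmac2, which helps build the distal membrane arm, went from 72.9 ± 2.64 to 47.1 ± 4.39 CPM (-0.64 ± 0.14 paired, adjusted p = 0.0283). Tmem70, which acts in the assembly of ATP synthase as well, went from 59.3 ± 8.59 to 35.0 ± 6.71 CPM (-0.77 ± 0.16, adjusted p = 0.0251). Ndufaf8 went from 24.3 ± 3.7 to 12.6 ± 3.66 CPM (-0.98 ± 0.23, adjusted p = 0.0388). The fourth was Ndufaf1, named after its values were seen (-0.79 ± 0.19, adjusted p = 0.0437). The largest p was that of Nubpl, which delivers iron-sulfur clusters to the enzyme, at 16.1 ± 3.31 and 12.7 ± 2.45 CPM (-0.33 ± 0.20 paired, adjusted p = 0.339). Of 13 genes for the synthesis of ubiquinone, the electron acceptor, none passed the unpaired edgeR test (6 with an unadjusted p under 0.05, DESeq2 3, limma-voom 0) and 3 fell in the paired fit. Coq9 went from 152 ± 29.5 to 91.9 ± 9.94 CPM (-0.71 ± 0.14, adjusted p = 0.0226) and Coq2 from 77.7 ± 6.13 to 53.5 ± 6.95 CPM (-0.54 ± 0.13, adjusted p = 0.0402). The third was Coq8a, named after its values were seen, at 110 ± 39.2 and 73.9 ± 22.2 CPM (-0.55 ± 0.13, adjusted p = 0.0335). Coq3, which came after Coq9 and Coq2 by unpaired p, did not pass (-0.78 ± 0.25 paired, adjusted p = 0.0993), and Coq10b had the largest p (-0.05 ± 0.16, adjusted p = 0.879).

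None of 14 regulators of mitochondrial genes passed in either edgeR fit (2 with an unadjusted p under 0.05 unpaired and 3 paired, where 25% of all tested genes had one), nor with DESeq2 or limma-voom, and their median paired difference was -0.09. Ppargc1a, the coactivator PGC-1α, had 82.2 ± 19.9 and 62.6 ± 9.67 CPM (-0.37 ± 0.19, edgeR paired, 95% interval -0.80 to 0.06). Esrra, an estrogen-related receptor, had 154 ± 24.7 and 111 ± 16.3 CPM (-0.48 ± 0.12, adjusted p = 0.0527). Tfam, which packs mitochondrial DNA, had 44.1 ± 4.85 and 31.8 ± 4.72 CPM (-0.48 ± 0.17, adjusted p = 0.129). Nrf1 (0.04 ± 0.15, 95% interval -0.29 to 0.38) and Gabpa (-0.05 ± 0.13, 95% interval -0.35 to 0.24), whose words were searched in the promoters, had estimates near 0. The word of YY1 was searched as well. Yy1, named after its values were seen, had 120 ± 5.94 and 127 ± 9.81 CPM (0.08 ± 0.12, 95% interval -0.20 to 0.36).

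The other respiratory complexes are set beside complex I with no test of a difference. The paired median was -0.73 for complex I, -0.66 for the 4 genes of complex II, -0.80 for 9 of complex III, -0.83 for 14 tested genes of complex IV and -0.72 for 17 of ATP synthase. Genes called lower in the paired fit were 29 of 39, 4 of 4, 9 of 9, 10 of 14 and 14 of 17, in that order, and 6, 1, 3, 2 and 2 in the unpaired fit. These lists were made by symbol. That of complex IV takes in the copy Cox7c-ps1 (-1.44 in the paired fit), and Ndufa4 is counted with complex I. In each of complexes II, III and IV the summed level was lower in the positive library of all 4 pairs, at 57.8 to 72.8%, 49.7 to 68.2% and 42.3 to 68.9% of the negative library. Lower levels in Tomato-positive cells were thus not limited to complex I.

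**Figure D5:**
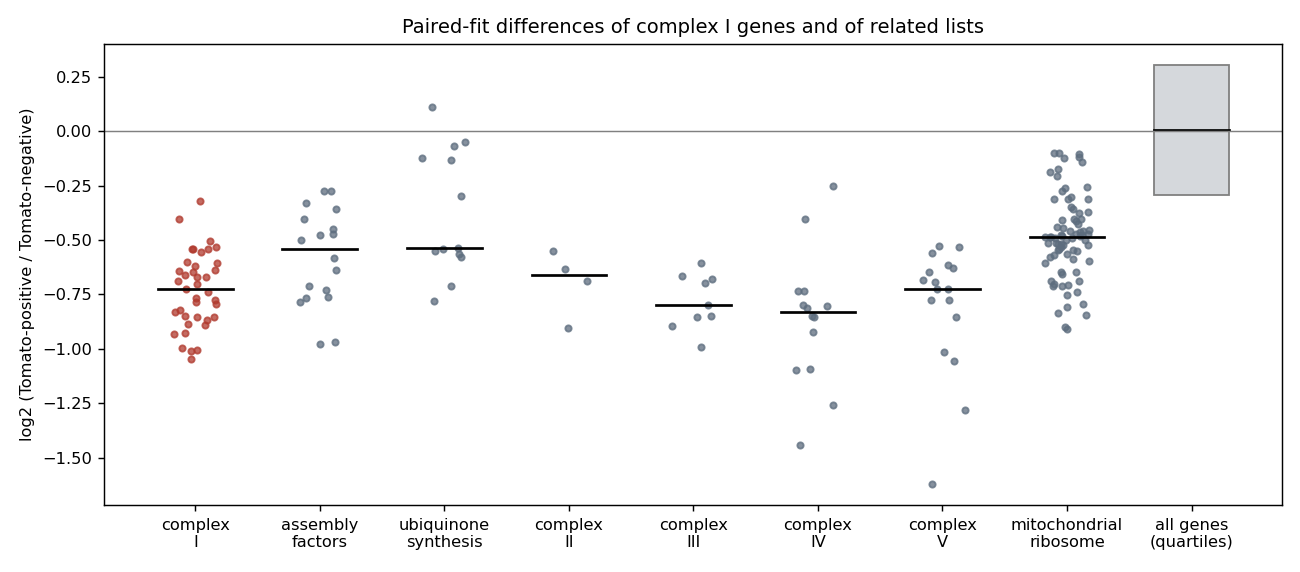
Paired-fit difference (log2, Tomato-positive minus Tomato-negative, y axis) of each tested gene in complex I and related lists; lines are medians and the box gives the quartiles of all 14284 tested genes. Respiratory complexes have medians between -0.83 and -0.66, and the mitochondrial ribosome one of -0.49, while all genes centre on 0.01.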

How the data were processed

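The deposited table held raw counts per gene symbol for 8 libraries; the authors used subread for alignment (per the file headers), and the submitters' processing notes name mm10, edgeR 3.32.1 and limma 3.46.0. Not given in the sources used here are the counter, annotation, strand setting and treatment of reads with several matches. RNA was taken up with a Norgen kit for small cell numbers and a NEBNext Ultra kit served for libraries, per the labels.

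Genes were kept with filterByExpr (a minimum count of 10, 15 in all), which left 14284. Tomato groups were compared with edgeR 4.0.16 in R 4.3.3 (TMM, quasi-likelihood test, 2-sided, Benjamini-Hochberg over all tested genes, threshold 0.05), on all 8 libraries without a block; SE is the log2 difference over the root of F. After removal of group means, libraries of the same identifier correlated at 0.46, 0.32, 0.33 and 0.47, all over 0.1, so a fit blocked on the identifier stands beside the main one where it changes a call or a count. Libraries of the other identifier of the same prefix correlated alike (0.30 to 0.47), so the pairing is largely that of the prefix. The fits were tried on simulated counts of independent genes, with no shared effect of a prefix or an identifier on both Tomato groups. That trial does not show how the fits behave where such effects exist. Lengths are unions of exons in GENCODE M21 (basic), where 98.3% of tested symbols had a gene. No 2 libraries of a group agreed within sampling noise (the smallest chi-square over its degrees of freedom was 15.5), and each library was taken as 1 sample. That measure cannot tell whether libraries come from separate animals. Floors and counts cover counting error only.

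The members and the lists were chosen with earlier results of these data known. Named with values in every library were 6 of the 7 core subunits (the other is not reported here by itself), 6 others with the smallest and the 4 with the largest unpaired p, Ndufa4 and Ndufa4l2; of assembly factors and ubiquinone genes, up to 3 with the smallest and 1 with the largest p; 5 regulators whatever their values. Other members are named as examples of their group. Alternatives were the block, prefix, scaling, filters, DESeq2 1.42.0, limma-voom (limma 3.58.1), a length correction (loess on exonic length, span 0.5; a version from other genes alone was added after the data were seen) and leaving out each library or pair.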

Additional observations from a re-analysis of the deposited data

Results flagged for a closer look

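In 7 of 78 groups of 4 libraries (39 genes in 2 Tomato groups) the highest library stood apart by more than Dixon's limit. About 1 in 20 independent groups would pass that limit by chance. These 78 groups share the same libraries, so the 7 cannot be set against that rate. For 5 genes this was the Tomato-negative library CKD627_1: Ndufa2 at 227 CPM, Ndufa5 at 196 CPM, Ndufa7 at 112 CPM, Ndufb2 at 112 CPM and Ndufs7 at 182 CPM. The summed complex I level was highest in that library as well (7023 CPM). In the Tomato-positive group Ndufa1 was high in CKD523_2 (82.5 CPM, the others at 58.3 to 62.1 CPM) and Ndufa10 in CKD627_2 (149 CPM, the others at 134 to 135 CPM). No lowest library stood apart.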

How the results depend on the processing

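The count of 6 complex I genes lower in the unpaired edgeR fit became 29 with the replicate block, 34 with the prefix as covariate, 33 in CKD523 alone, 34 with DESeq2, 35 with DESeq2 and the block, 34 with limma-voom and the block, 19 with the block and the length correction, and 21 with the block and a length correction from other genes. It became 1 with library totals only, 1 without a filter, and 1 with either length correction unpaired. Leaving out single libraries or pairs gave 0 to 29. CKD627 alone (9), DESeq2's size factors (6), a stricter filter (6) and limma-voom (6) gave like counts. The cause of these shifts was not tested. The median of -0.72 kept its sign in all 28 alternatives and was nearest 0 with the length correction (-0.42). Ndufb4 turned sign with the length correction (0.0217), the block and that correction (0.0305), and the block with the correction from other genes (0.00664). Of the values of single genes under these alternatives, 761 kept their direction and their side of the threshold, 237 came to pass, 88 ceased to pass and 3 reversed. The 4 assembly factors called with the block compare with 0 without it. With and without the block, 0 complex I genes had a Tomato difference that differed between prefixes.

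Having 4 libraries per group, of 2 prefixes and with no record of separate animals, limits the precision. Levels of segment markers and of short transcripts differ between the Tomato groups, and no library of healthy kidney was compared. Values of Ndufb4 and Ndufb4c depend on how reads of copies were counted.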

Other observations

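A list for the cytosolic ribosome also holds many short transcripts. It was made by symbol alone (Rpl, Rps or Rplp and a digit, and Rpsa). That pattern also admits S6 kinase genes (Rps6k) and copies, so the list is not one of ribosomal proteins only. Its 103 tested genes had a median exonic length of 1009 bases (375 to 8025 bases) and a median paired difference of -0.22. Their level was lower than that of the complex I genes (medians over genes of 20.5 and 107 CPM), and no test compared the lists. None was called lower by edgeR in either fit (12 had an unadjusted p under 0.05 unpaired and 14 paired, DESeq2 called 1 and limma-voom 0). Their pair medians were 0.12, 0.02, -0.89 and -0.16, so that the shift lay mainly in CKD627_1. After the length correction their median was 0.03. The 78 genes of the mitochondrial ribosome had a median of -0.49, with 10 lower in the paired fit and 1 in the unpaired fit.

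Genes of the hypoxia response, listed beside Ndufa4l2, did not move one way. Of 10, 2 rose in the paired edgeR fit, where 545 of all 14284 tested genes did. They were Egln3 (1.04 ± 0.17, adjusted p = 0.0106) and Pfkfb3 (0.99 ± 0.19, adjusted p = 0.0196). Bnip3, which marks mitochondria for removal, fell (-0.71 ± 0.15, adjusted p = 0.0272). In the unpaired fit 0 passed, with 2 at an unadjusted p under 0.05, and DESeq2 called 2.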
